A study of Saccharomyces cerevisiae with 6 samples.

Results

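The 10 genes SSA1, SSA2, SSA3, SSA4, YDJ1, SIS1, FES1, HSP104, HSP42 and HSP26 encode the cytosolic Hsp70 machine of budding yeast, its J-domain and exchange factors, the disaggregase and the small heat shock proteins. They were chosen by name, from their known roles, but with earlier results of these data known. Of the 10, 8 are among the 2850 genes that the deposited tables list. Expression of SSA3 and HSP26 was not analysed here. RNA was measured in 3 cultures carrying the [ESI+] state and 3 naive cultures of the diploid strain BY4743, grown in rich medium (YPD) to mid-logarithmic phase with no heat or drug treatment given in the labels. [ESI+] is a heritable, prion-like state linked to Snt1, a scaffold of the Set3 histone deacetylase complex. BY4743 is a laboratory diploid that lacks URA3 by design, and both groups share this background. The cultures are given as biological replicates, with no word on whether they descend from 1 or several isolates.

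Hsp70 proteins bind exposed stretches of unfolded proteins and let go of them in a cycle driven by ATP. J-domain proteins (Hsp40) deliver clients and start ATP hydrolysis, and exchange factors release the nucleotide so that the client can leave. Hsp104 pulls proteins out of aggregates together with Hsp70, and small heat shock proteins hold aggregating proteins in a form from which they can be recovered. In yeast the same proteins cut, carry or cure several prions, and the heat shock factor Hsf1 drives many of their genes.

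The 4 promoters below are shown because SSA1, SSA2 and HSP104 stood apart from the other members in the within-library ratios given further on, and HSP42 holds the same kinds of element as HSP104. Each run holds the 300 bases before the start codon, 5′ to 3′ on the gene's strand, in the R64 RefSeq reference. Capitals mark heat shock element cores (TTCNNGAA or GAANNTTC, each its own reverse complement, with a further alternating unit 2 bases on where there is one) and stress response elements (AGGGG or CCCCT).
SSA1 (chrI:141432-141731, minus strand): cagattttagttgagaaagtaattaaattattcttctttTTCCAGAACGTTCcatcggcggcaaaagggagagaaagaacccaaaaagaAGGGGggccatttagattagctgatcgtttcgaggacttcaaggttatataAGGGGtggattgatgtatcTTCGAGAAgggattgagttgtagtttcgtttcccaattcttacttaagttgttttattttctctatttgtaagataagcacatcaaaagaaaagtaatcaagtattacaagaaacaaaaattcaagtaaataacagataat
SSA2 (chrXII:97486-97785, minus strand): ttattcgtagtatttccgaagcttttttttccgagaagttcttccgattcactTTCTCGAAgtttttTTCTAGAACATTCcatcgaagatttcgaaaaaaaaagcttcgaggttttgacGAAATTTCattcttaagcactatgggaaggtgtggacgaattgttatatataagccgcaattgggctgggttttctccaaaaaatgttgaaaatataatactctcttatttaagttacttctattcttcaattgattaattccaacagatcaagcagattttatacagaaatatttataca
HSP104 (chrXII:88323-88622, plus strand): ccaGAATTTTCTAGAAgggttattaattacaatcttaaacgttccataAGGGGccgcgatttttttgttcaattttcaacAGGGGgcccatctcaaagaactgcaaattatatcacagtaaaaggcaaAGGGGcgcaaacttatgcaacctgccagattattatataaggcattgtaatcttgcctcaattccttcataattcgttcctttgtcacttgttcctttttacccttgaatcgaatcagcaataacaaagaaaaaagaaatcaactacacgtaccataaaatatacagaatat
HSP42 (chrIV:806321-806620, plus strand): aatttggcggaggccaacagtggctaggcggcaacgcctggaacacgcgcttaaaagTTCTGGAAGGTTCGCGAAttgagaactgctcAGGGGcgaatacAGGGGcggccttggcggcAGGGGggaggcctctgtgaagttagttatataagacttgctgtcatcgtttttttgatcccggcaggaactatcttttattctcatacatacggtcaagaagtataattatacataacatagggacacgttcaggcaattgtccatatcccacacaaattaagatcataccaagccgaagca

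A heat shock core stood in 6 of the 8 windows, those of SSA1, SSA2, SSA4, FES1, HSP104 and HSP42, against 22.4% of 6007 nuclear promoters of this length. The element with 3 alternating units, which overlaps the cores, was in 5 of the 8, those of SSA1, SSA2, FES1, HSP104 and HSP42, against 0.866% of all promoters. A stress response element was in 4 of the 8, those of SSA1, SSA4, HSP104 and HSP42, against 22.2% of all promoters, and the SSA2 window had none. HSP104 and HSP42 each had 3 of them. The windows of YDJ1 and SIS1 held neither motif, which says only that these letters are not in these 300 bases. Outside the 8, the windows of SSA3 and HSP26 also held neither motif.

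SSA1 and SSA2 share reads, and this bears on every value that separates them. Their coding sequences, of 1929 and 1920 bases, differ at 61 of 1920 aligned bases (96.8% identity), and the longest identical run is 383 bases. Of the 31-base words of SSA1, 63.6% also occur in SSA2, while neither gene shares such a word with SSA4 (75.2% and 74.5% identity). The 60-base stretch where they differ most, coding bases 1661 to 1720 in both, is shown because such stretches decide how fragments are divided between them. Capitals mark the 9 bases that differ.
SSA1 (chrI:139712-139771, minus strand): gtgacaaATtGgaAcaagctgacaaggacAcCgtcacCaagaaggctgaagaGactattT
SSA2 (chrXII:95766-95825, minus strand): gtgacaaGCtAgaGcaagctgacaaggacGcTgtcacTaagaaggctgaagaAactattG
No other gene of the R64 RefSeq annotation overlaps any of the 10 coding spans.

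The libraries differed in depth and make-up. Total estimated counts were 316485 to 3896490 in the ESI+ libraries and 1080941 to 5934050 in the naive libraries, and the 100 most abundant genes held 28.3% to 51.6% and 57.0% to 61.1% of them. URA3 had 333 normalised CPM (estimated counts scaled to a common library size by TMM) in ESI+ replicate 3 and 254.8 in naive replicate 3, and 17.8 to 32.3 in the other 4 libraries, so these replicates go against the strain label. In ESI+ replicate 2 the 5th percentile over genes of counts per kb was 298.8, against 2.03 to 55.4 in the other libraries. The 8 genes stood 2.59 (YDJ1) to 16.4 (SSA1) times above that level in ESI+ replicate 2, and at least 8.73 times above their own library's level elsewhere. Of the 15 haploid-specific and mating genes listed as a diploid check, 2 were tested (MFA1 and STE4), with summed levels of 41.5 to 109 CPM in ESI+ libraries and 19.8 to 42.0 CPM in naive libraries. MFA1 alone had 3.77, 11.4 and 15.0 CPM in ESI+ replicates 1 to 3, against 1.42, 0 and 0.872 CPM in naive replicates 1 to 3, while STE4 overlapped. With edgeR 0 of the 2 genes passed (1 higher at an unadjusted p under 0.05, MFA1), while DESeq2 and limma on log2(TPM + 1) each called 1 higher. Of all 2844 tested genes, 429 were higher at that unadjusted p. DESeq2 called 241 of 2844 higher, and limma 138 of 2850. The part of these features in the results below was not tested, beyond the fits without single libraries and with the background subtracted.

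All 8 genes had negative log2 fold changes, ESI+ minus naive, and the sizes ranged from -2.06 for SSA2 to -0.04 for HSP104. The signs of SSA1 and HSP104 turned positive on the TPM scale, on which the whole gene set had a median of 0.64, and without ESI+ replicate 2. That of HSP104 also turned after background subtraction, with the filter of 50 counts in 3 libraries, with length offsets and without some other libraries. The median of the 8 was -1.09, beside 0.07 over the 2844 genes tested, and 1354 of those (47.6%) had negative values. The lower members included the constitutive Hsp70 gene SSA2, the Hsp40 gene YDJ1 and the exchange factor gene FES1, and HSP104 had nearly equal group means. With edgeR's quasi-likelihood test and Benjamini-Hochberg adjustment over all genes, 0 of the 8 passed a threshold of 0.05 in either direction, against 6.26% of all tested genes called higher and 1.65% called lower. At an unadjusted p under 0.05, 3 of the 8 were lower (SSA2, YDJ1 and FES1) and 0 higher, against 302 lower and 429 higher of all 2844. DESeq2 and limma on log2(TPM + 1) each called 1 of the 8, SSA2, as lower, and 0 as higher. Over all genes DESeq2 called 145 of 2844 lower and 241 higher, and limma 32 of 2850 lower and 138 higher. In normalised CPM, SSA2, YDJ1, FES1 and HSP42 lay below all 3 naive libraries in all 3 ESI+ libraries. That is 4 of 8 genes against 14.6% of all tested genes on that side, and 0 of 8 lay above, against 15.2%. This count depends on the scaling, since in TPM SSA2 alone was separated and YDJ1, FES1 and HSP42 overlapped. The TMM factors were 0.959, 1.94 and 1.26 in ESI+ replicates 1 to 3, against 0.809, 0.681 and 0.773 in naive replicates 1 to 3. All 8 belong to the 711 genes with the highest mean CPM over all libraries, with -0.70 as their median log2 fold change, and of these 32.1% were separated downward and 3.94% called lower. Against the naive mean, the median of the 8 was -1.11, -1.84 and -0.42 in ESI+ replicates 1 to 3. In bulk RNA a lower level per culture cannot be told apart from fewer cells that express the gene.

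**Figure D1:**
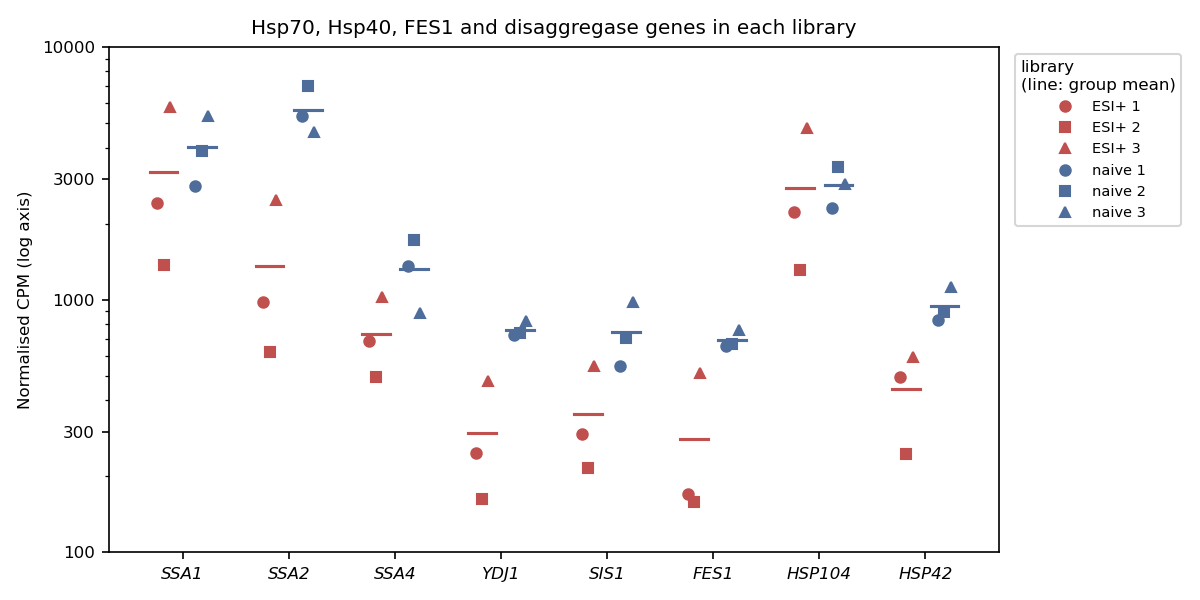
Normalised CPM (log axis) of the 8 listed genes in the 3 ESI+ libraries (red) and the 3 naive libraries (blue), with group means as lines. ESI+ replicate 2 is the lowest ESI+ library and ESI+ replicate 3 the highest for each gene, and the 3 ESI+ points of SSA2, YDJ1, FES1 and HSP42 all lie below the naive points.

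The Hsp70 genes come first. SSA1 (YAL005C, chromosome I, 139503 to 141431), the constitutive Hsp70 gene that heat also induces, had 2411, 1375 and 5777 normalised CPM in ESI+ replicates 1 to 3, against 2830, 3889 and 5354 in naive replicates 1 to 3. The groups overlap, because ESI+ replicate 3 was above every naive library while ESI+ replicates 1 and 2 were below them. For SSA1 edgeR gave a log2 fold change of -0.34 with an SE of 0.76 (adjusted p = 0.805), and it was 0.025 without ESI+ replicate 2 and -1.09 without ESI+ replicate 3. SSA2 (YLL024C, chromosome XII, 95566 to 97485), which encodes an almost identical Hsp70 made at a steady level, had 978, 618 and 2486 CPM in ESI+ replicates 1 to 3, against 5335, 6979 and 4629 CPM in naive replicates 1 to 3. Each ESI+ library was below each naive library, and the closest pair was replicate 3 of both groups. The SSA2 log2 fold change of -2.06 (SE 0.79, 1361 ± 991 CPM in ESI+ against 5648 ± 1206 CPM in naive libraries, SD, n = 3) did not pass with edgeR (adjusted p = 0.0940), and 0.703% of tested genes had a fold change as low. DESeq2 called SSA2 lower, at -2.04 with an adjusted p of 0.00684. So did limma on log2(TPM + 1), at -1.49 with an adjusted p of 0.0187. Leaving out single libraries gave -2.82 to -1.71, with edgeR adjusted p of 0.0516 to 0.328.

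SSA4 (YER103W, chromosome V, 364589 to 366517), the strongly heat-inducible Hsp70 gene, had 684, 495 and 1022 CPM in ESI+ replicates 1 to 3, against 1364, 1723 and 888 CPM in naive replicates 1 to 3. ESI+ replicate 3 was above naive replicate 3 and below the other naive libraries. The edgeR estimate was -0.85 on the log2 scale, with an SE of 0.67 (adjusted p = 0.423). With the counts of SSA1 and SSA2 summed as 1 gene, which takes the sharing of reads between them out of the value, edgeR gave -1.09 with an SE of 0.80 (adjusted p = 0.392).

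The ratio of SSA1 to SSA2 differed between the groups without overlap, while the summed Hsp70 level overlapped. In TPM, the abundance per transcript length, SSA1 was 2.39, 2.15 and 2.25 times SSA2 in ESI+ replicates 1 to 3, against 0.514, 0.539 and 1.12 times in naive replicates 1 to 3. SSA1 was thus the more abundant gene of the pair in each ESI+ library, and in naive libraries only in replicate 3, which also stood nearest to the ESI+ values. The mean log2 ratio was 1.18 ± 0.08 in ESI+ and -0.56 ± 0.63 in naive libraries (SD, n = 3), a difference of 1.74. An exact two-sided permutation test gave p = 0.1, the smallest that the 20 assignments of 3 against 3 libraries allow, and 0.2 after Benjamini-Hochberg adjustment over the 28 gene pairs compared. Without replicate 3 of either group the ratios were 2.39 and 2.15 in ESI+ libraries, against 0.514 and 0.539 in naive libraries. After subtraction of the length-proportional background the difference was 1.79, and with estimated counts in place of TPM the ratios were 2.46, 2.22 and 2.32 in ESI+ libraries, against 0.530, 0.557 and 1.16 in naive libraries. As shares of the summed TPM of SSA1, SSA2 and SSA4, SSA2 made up 24.6%, 25.5% and 27.4% in ESI+ replicates 1 to 3, against 56.7%, 56.1% and 43.3% in naive replicates 1 to 3. SSA1 made up 58.7%, 54.8% and 61.6% in ESI+ libraries, against 29.2%, 30.3% and 48.5% in naive libraries, and SSA4 11.0% to 19.8% in ESI+ against 8.15% to 14.2% in naive libraries. The summed TPM itself was 1678, 2231 and 4569 in ESI+ replicates 1 to 3, against 3526, 3701 and 3615 in naive replicates 1 to 3, so the ESI+ libraries spread to both sides of the naive ones. These ratios rest on how the authors' quantification divided fragments over the stretches where both genes are identical.

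**Figure D2:**
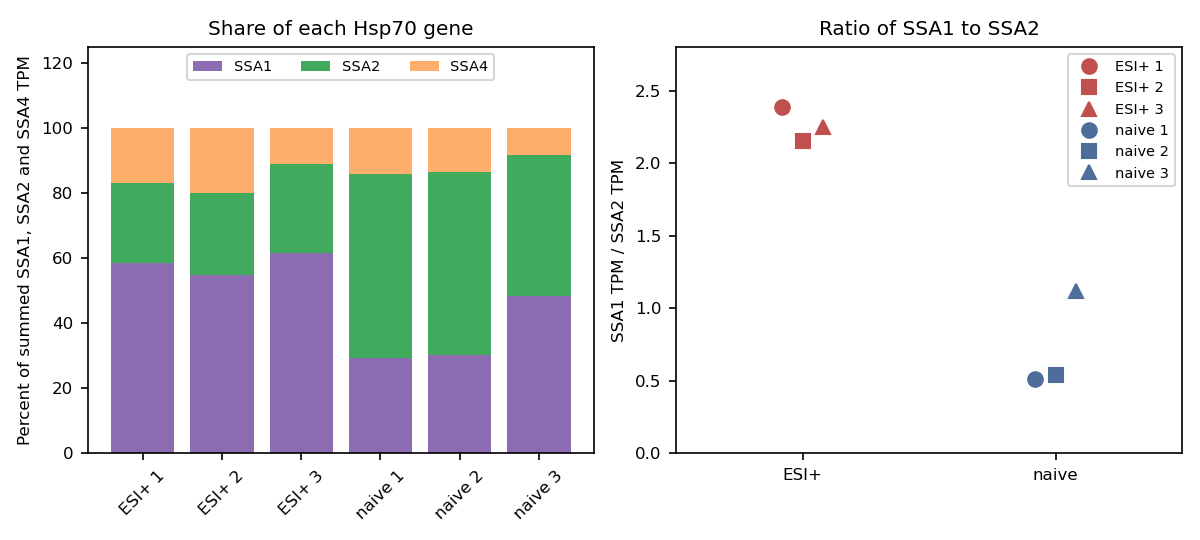
Left, percent of the summed TPM of SSA1, SSA2 and SSA4 held by each gene in each library. Right, SSA1 TPM divided by SSA2 TPM in each library, 2.15 to 2.39 in the 3 ESI+ libraries and 0.514 to 1.12 in the 3 naive libraries.

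The J-domain and exchange factor genes were lower on average in ESI+ libraries by similar amounts, without passing the edgeR test. YDJ1 (YNL064C, chromosome XIV, 505868 to 507097), the most general Hsp40 of the yeast cytosol, had 247, 163 and 478 CPM in ESI+ replicates 1 to 3, against 723, 736 and 820.1 CPM in naive replicates 1 to 3. The naive libraries were close together (759.5 ± 52.8, SD, n = 3) and all above the ESI+ libraries (296 ± 163, SD, n = 3). The YDJ1 estimate was -1.37 with an SE of 0.59 by edgeR (adjusted p = 0.138), and the adjusted p by DESeq2 was 0.0508. SIS1 (YNL007C, chromosome XIV, 618507 to 619565), an essential Hsp40 needed to propagate several yeast prions, had 294, 216 and 546 CPM in ESI+ replicates 1 to 3, against 545, 706 and 983 CPM in naive replicates 1 to 3. ESI+ replicate 3 and naive replicate 1 were nearly equal, and this pair alone kept the groups from separating. For SIS1 edgeR gave -1.09 with an SE of 0.60 (adjusted p = 0.247). FES1 (YBR101C, chromosome II, 443821 to 444693), a nucleotide exchange factor of cytosolic Hsp70, had 170.1, 159 and 511 CPM in ESI+ replicates 1 to 3, against 653, 671 and 761 CPM in naive replicates 1 to 3. Its ESI+ replicates 1 and 2 were far below the naive range and ESI+ replicate 3 nearer to it. The FES1 estimate was -1.33 with an SE of 0.59 (edgeR, adjusted p = 0.152), and -2.08 without ESI+ replicate 3, where it passed (edgeR adjusted p = 0.0334).

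HSP104 (YLL026W, chromosome XII, 88623 to 91349), the disaggregase on which most yeast prions depend, had 2216, 1307 and 4783 CPM in ESI+ replicates 1 to 3, against 2297, 3362 and 2875 CPM in naive replicates 1 to 3. Its ESI+ values spanned the naive range, with replicate 3 above it and replicates 1 and 2 below it. The edgeR estimate of -0.04 had an SE of 0.74 (adjusted p = 0.980), so a change of either sign was not detectable at this spread. It lay between -0.69 without ESI+ replicate 3 and 0.30 without ESI+ replicate 2. HSP42 (YDR171W, chromosome IV, 806621 to 807748), a small heat shock protein gene active in unstressed cells, had 493, 244 and 596 CPM in ESI+ replicates 1 to 3, against 833, 892 and 1118 CPM in naive replicates 1 to 3. Each ESI+ library was below each naive library, and edgeR gave -1.10 with an SE of 0.62 (adjusted p = 0.265).

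The order of abundance per length also differed. In ESI+ libraries mean TPM was 1673 ± 995 for SSA1, 1055 ± 545 for HSP104, 744 ± 446 for SSA2, 422 ± 86.6 for HSP42, 409 ± 115 for SSA4, 376 ± 220.3 for FES1, 369 ± 141 for SIS1 and 221 ± 92.8 for YDJ1 (SD, n = 3). In naive libraries it was 1881 ± 275 for SSA2, 1301 ± 395 for SSA1, 658 ± 48.2 for HSP104, 568 ± 74.2 for FES1, 561 ± 103 for HSP42, 469 ± 142 for SIS1, 432 ± 119 for SSA4 and 346 ± 42.7 for YDJ1 (SD, n = 3). In the ESI+ order each neighbouring pair apart from SIS1 and YDJ1 differed by less than the larger of its SDs. In the naive order this held from FES1 down to YDJ1, while SSA2, SSA1 and HSP104 each differed from the next by more. SSA1, HSP104 and SSA2 followed each other in this order in every ESI+ library, and SSA2 and SSA1 were both above HSP104 in every naive library. In TPM the 3 ESI+ values of SSA2 lay below all naive values, while the ranges of the other 7 genes overlapped. Together the 8 genes held 0.322%, 0.438% and 0.820% of all TPM in ESI+ replicates 1 to 3, against 0.598%, 0.605% and 0.661% in naive replicates 1 to 3.

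Ratios between the genes within a library do not depend on library scaling. Of the 28 pairs among the 8 genes, 14 had 3 ESI+ ratios that did not overlap the 3 naive ratios, or 13 after background subtraction, against 31.7% of the 3821230 pairs among the 2765 tested genes above 0 TPM in every library. Each of the 14 had the smallest possible exact permutation p of 0.1 and an adjusted p of 0.2. All 14 involved SSA1, SSA2 or HSP104, and none of the 10 pairs within SSA4, YDJ1, SIS1, FES1 and HSP42 was separated. The largest difference was that of SSA2 and HSP104, where SSA2 was 0.629, 0.681 and 0.747 times HSP104 in ESI+ replicates 1 to 3, against 3.31, 2.99 and 2.32 times in naive replicates 1 to 3. This pair lies on the left arm of chromosome XII with 4216 bases and 2 annotated genes between the coding spans. HSP104 was also higher relative to FES1, YDJ1, SIS1 and HSP42, without overlap between the groups, and so was SSA1 relative to the same genes. SSA1 was 7.07, 6.03 and 8.74 times YDJ1 in ESI+ replicates 1 to 3, against 2.83, 3.77 and 4.65 times in naive replicates 1 to 3. FES1 was 0.257, 0.425 and 0.362 times HSP104 in ESI+ replicates 1 to 3, against 0.953, 0.705 and 0.946 times in naive replicates 1 to 3. YDJ1 was 0.213, 0.243 and 0.192 times HSP104 in ESI+ libraries, against 0.602, 0.427 and 0.559 times in naive libraries. Of the Hsp70 genes, SSA2 alone was separated relative to HSP104, while the ratios of SSA1 and of SSA4 to HSP104 overlapped between the groups. The summed Hsp70 level, which holds SSA2, was 2.56, 2.68 and 2.73 times HSP104 in ESI+ libraries, against 5.84, 5.32 and 5.36 times in naive libraries. By contrast the Hsp70 sum was 4.58, 3.90 and 5.49 times the sum of YDJ1 and SIS1 in ESI+ libraries, against 4.77, 5.32 and 3.58 times in naive libraries, and these ranges overlap. The smallest difference among the 28 was that of SIS1 over HSP42, 0.03 on the log2 scale (exact permutation p = 0.8).

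**Figure D3:**
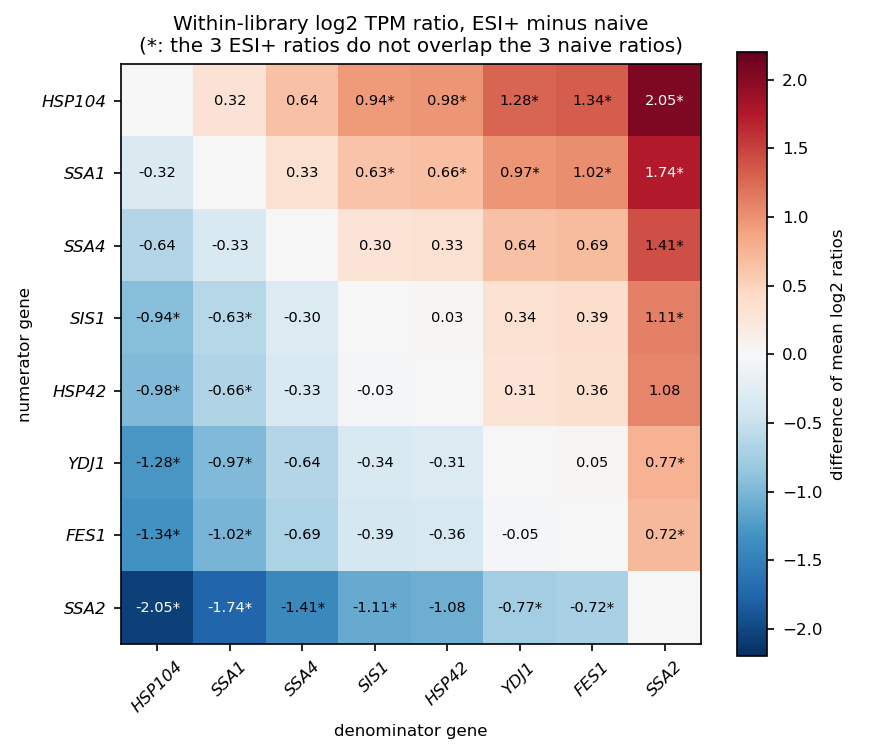
Difference of the mean log2 TPM ratio of each pair of genes, ESI+ minus naive, with the numerator gene in rows and the denominator gene in columns, and a star where the 3 ESI+ ratios do not overlap the 3 naive ratios. The stars lie in the rows and columns of HSP104, SSA1 and SSA2, and the largest difference is that of SSA2 over HSP104 (-2.05).

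Around these genes, 27 of 43 listed genes of the wider chaperone network were tested, and the other 16 were not analysed here. The list was drawn up with earlier results of these libraries known, so its direction is not independent evidence. With edgeR 3 were lower, 0 higher and 24 not called, with a median log2 fold change of -1.24, and 25 of the 27 values were negative. At an unadjusted p under 0.05, 10 were lower and 0 higher. DESeq2 called 10 lower and 0 higher, and limma on log2(TPM + 1) 5 lower and 0 higher. The tools also differed over the whole gene set. There edgeR had 47 genes lower and 178 higher of 2844, and 302 and 429 at that unadjusted p. The DESeq2 counts were 145 and 241 of 2844, and those of limma 32 and 138 of 2850. The 3 called genes were the Hsp110 gene SSE1, whose product acts as an exchange factor for Ssa proteins (-2.49 with an SE of 0.77, edgeR adjusted p = 0.0450), and the pair SSZ1 (-2.30 with an SE of 0.65, adjusted p = 0.0322) and ZUO1 (-2.16 with an SE of 0.66, adjusted p = 0.0420) of the ribosome-associated complex. None of them passed without ESI+ replicate 2, where edgeR called 0 genes of this list, as it did without ESI+ replicate 3, without each naive library and after background subtraction.

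SSE1 had 1187, 467 and 694 CPM in ESI+ replicates 1 to 3, against 3968, 6040 and 3141 CPM in naive replicates 1 to 3. Of the Hsp70 exchange factor genes, SSE1 and FES1 were both below the naive range in each ESI+ library, while the membrane-bound factor gene SNL1 had 69.4, 85.5 and 77.6 CPM in ESI+ libraries, against 102, 78.7 and 65.6 CPM in naive libraries. Among 10 tested genes of Hsp90 and its cochaperones all values were negative, with a median of -1.10 and none called by edgeR (4 at an unadjusted p under 0.05, 3 by DESeq2 and 2 by limma on log2(TPM + 1)). The most abundant of them, the Hsp90 gene HSC82, which has a near-identical copy in HSP82, had 1794 ± 563 CPM in ESI+ and 9597 ± 4964 CPM in naive libraries (SD, n = 3), and edgeR gave -2.42 with an SE of 0.81 (adjusted p = 0.0594). SSB2, an Hsp70 gene of the ribosome with a near-identical copy in SSB1, had 1878 ± 1551 CPM in ESI+ and 5560 ± 949 CPM in naive libraries (SD, n = 3), with an edgeR estimate of -1.57 (adjusted p = 0.201).

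Among the 3 other tested J-domain genes, the most abundant was CAJ1, at -1.24 with an SE of 0.48 (edgeR, adjusted p = 0.0972), and HLJ1, which encodes a J protein of the endoplasmic reticulum membrane, had -0.01. BTN2, a sorting factor for misfolded proteins, had 219, 264 and 864 CPM in ESI+ replicates 1 to 3, against 837, 975 and 1374 CPM in naive replicates 1 to 3, and ESI+ replicate 3 overlapped the naive range. Its log2 fold change was -1.25 (edgeR adjusted p = 0.234), and that of its paralogue CUR1 was -0.08. KAR2, the Hsp70 gene of the endoplasmic reticulum, was at -1.36 with an SE of 0.72 by edgeR (adjusted p = 0.228), and passed with DESeq2 at -1.34 (adjusted p = 0.0455). HSP12, a membrane-protecting stress protein gene, had 3514, 547 and 1475 CPM in ESI+ replicates 1 to 3, against 1433, 2179 and 1001 CPM in naive replicates 1 to 3 (log2 fold change 0.26, edgeR adjusted p = 0.845). ESI+ replicate 1 was the highest and ESI+ replicate 2 the lowest of all libraries.

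**Figure D4:**
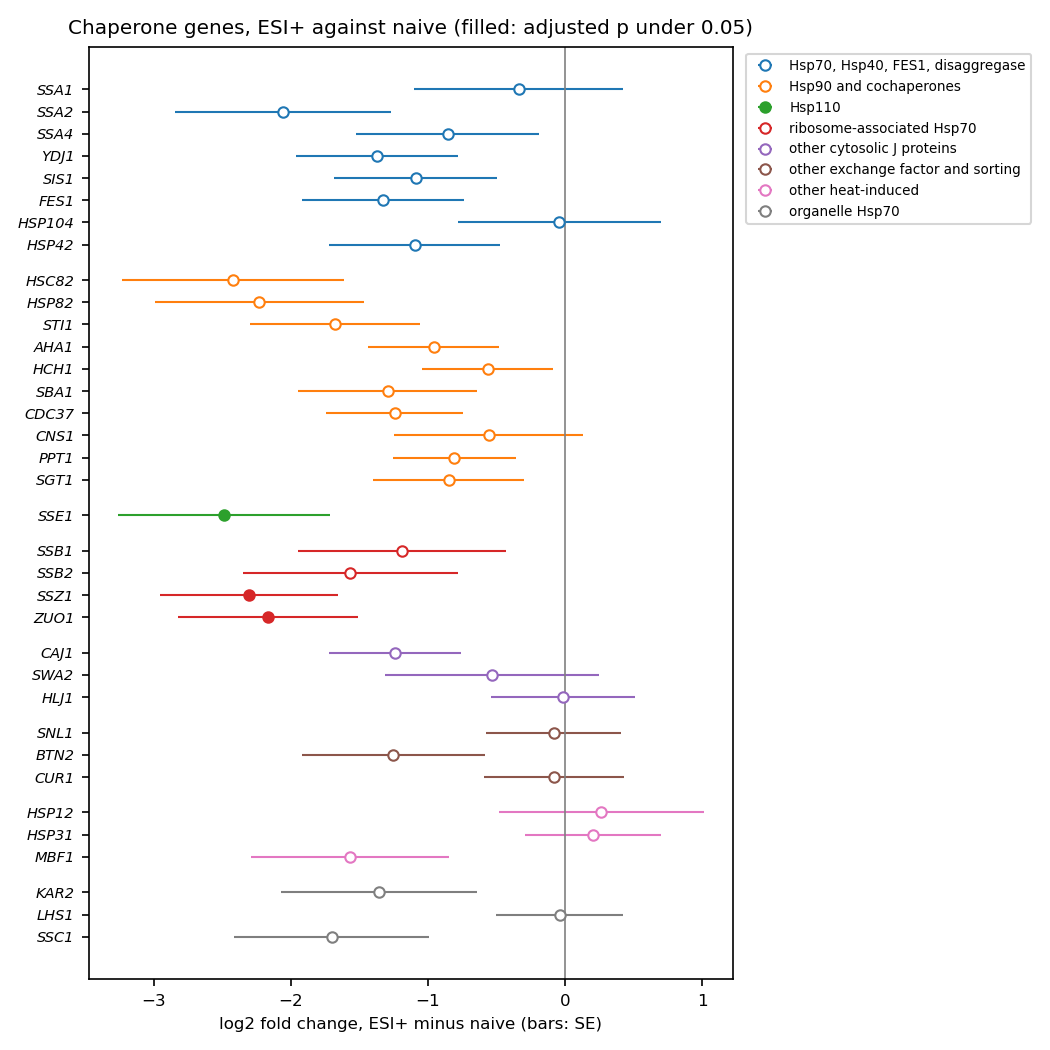
Log2 fold change, ESI+ minus naive, of the 8 genes and of 27 genes of the wider chaperone network, with bars of 1 SE and filled points for an edgeR adjusted p under 0.05. SSE1, SSZ1 and ZUO1 are filled, and HSP104 at -0.04 and SSA2 at -2.06 are the ends of the range of the 8 genes.

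General stress genes, which share the stress response element with HSP104 and HSP42 in yeast, were read as a sign of the state of the cultures. Of 12 listed, 10 were tested, with a median log2 fold change of 0.28, and edgeR called 0 in either direction, also at an unadjusted p under 0.05. By limma on log2(TPM + 1) 2 were higher and 0 lower, against 138 and 32 of all 2850 genes, whose median on that scale was 0.64. By DESeq2 0 were called in either direction. HSP12 is also a gene of the network above. Their summed level was 20233, 5458 and 9568 CPM in ESI+ replicates 1 to 3, against 7540, 9144 and 10355 CPM in naive replicates 1 to 3. ESI+ replicate 1 had the highest sum of all libraries, while for each of the 8 chaperone genes ESI+ replicate 3 was the highest ESI+ library.

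The genes whose profiles over the 6 libraries were most like the mean profile of the 8 came from other pathways. By the root mean square difference of centred log2 CPM, the nearest were the ribosome assembly gene RSA3 (0.143), the polyphosphate synthesis gene VTC4 (0.173), RPC40, which encodes a subunit of RNA polymerases I and III (0.177), the translation elongation factor gene EFB1 (0.194) and the Golgi GTPase gene YPT31 (0.199). YDJ1 and SIS1 lay at 0.188 and 0.199 from this mean, which they help to form, and SSA2 and HSP104 farthest of the 8, at 0.601 and 0.479.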

How the data were processed

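Polyadenylated RNA of 3 ESI+ and 3 naive cultures was sequenced in paired ends, per the labels' protocols. The deposited tables give estimated counts and TPM for 17906 transcript isoforms of 2850 genes, which the authors made with kallisto 0.43.1 on build R64, per the submitters' processing notes. Fragments that fit several isoforms are shared out by that tool, so near-identical genes can exchange counts. Its options, the isoform models and the strandedness are not given in the sources used here.

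Estimated counts were summed per gene and rounded, and genes were kept by edgeR's filter (minimum count 10), which left 2844 genes and all 8 listed members. The test of ESI+ over naive was the quasi-likelihood test of edgeR 4.0.16 in R 4.3.3, with TMM scaling and robust dispersions, fitted across all genes and adjusted over them by the Benjamini-Hochberg method at 0.05. Each SE is the absolute fold change divided by the root of F. Deposited TPM were used for levels between genes, within-library ratios and limma 3.58.1, and DESeq2 1.42.0 was an alternative. The fits were checked on simulated data, and no outcome of that check is given here. Symbols, coordinates and sequences come from the R64 RefSeq assembly, with 2849 genes matched by systematic name, and alignments used Biopython 1.88.

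The members and lists were chosen with earlier results of these data known. Named genes were all listed members, each called gene and the most abundant tested gene of each network subgroup, and the 5 nearest profiles. Genes named beyond this rule (SNL1, CUR1, HLJ1) and the ratios described were chosen after their values were seen. P-values measure the spread between these cultures only.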

Additional observations from a re-analysis of the deposited data

How the results depend on the processing

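Of the 142 fold changes of single members under other settings, 126 kept their sign and their side of the threshold, 4 passed it and 12 changed sign, all of these SSA1 or HSP104. HSP104 had 0.56 with limma on log2(TPM + 1) and 0.56 with a pseudocount of 0.1, 0.0033 with the filter of 50 counts in 3 libraries, 0.023 with effective-length offsets, 0.20 after background subtraction, and -0.69 to 0.30 without single libraries. SSA1 had 0.25 with limma at either pseudocount and -1.09 to 0.025 without single libraries. On the TPM scale the median of all genes was 0.64 and that of the 8 members -0.40, so SSA1 and HSP104 lay below that median there. The cause of the other changes was not tested. The median of the members was -1.46 to -0.82 without single libraries. DESeq2 called 1 member, 10 network genes and 145 genes in all lower. Limma called 1 member and 5 network genes lower at either pseudocount, with network medians of -0.64 and -0.65, and 96 genes higher and 20 lower in all with a pseudocount of 0.1. Background subtraction, and ESI+ replicate 1 alone against naive, each left 0 genes called higher, 0 lower and 0 network genes lower. The last of these assumes that the lone sample varies like the naive libraries. Without robust dispersions, a setting added after seeing the data, 28 genes were called lower. Without single libraries 2 to 331 genes were called higher and 0 to 87 lower, with 0 to 4 network genes and 0 to 1 members lower (FES1 without ESI+ replicate 3). ESI+ replicate 2 moved these counts most, with 2 higher and 0 lower without it, and leaving out a naive library gave 63 to 87 higher and 4 to 14 lower. The shares of SSA1, SSA2 and SSA4 moved by less than their SD with counts in place of TPM. Same-numbered libraries did not deviate together over genes (r of -0.06, -0.21 and -0.04), and no ESI+ library correlated best with its own number. URA3 was an exception, as it was high in replicate 3 of both groups. With the replicate number as a block, 67 genes were called higher, 25 lower and 0 network genes lower. The shallowest library, ESI+ replicate 3, had 191 (YDJ1) to 2307 (SSA1) estimated counts for the members, which limits the precision of the lower ones there.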

Other observations

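Isoform use was read as a description, since near-identical isoforms that differ by a few bases at their ends are hard to tell apart. SSA1 has 7 listed isoforms of 2102 to 2130 bases. One of 2130 bases took 100% of its counts in ESI+ replicate 1 and the 3 naive libraries, and 66.6% in ESI+ replicate 3. SSA2 has isoforms of 2060 and 2071 bases, of which the longer led in each library but ESI+ replicate 3, where the shorter took 82.9%. HSP42 has 3 isoforms. One of 1297 bases led in ESI+ replicates 1 and 2, with 61.3% and 88.6% of the counts. One of 1280 bases led in ESI+ replicate 3 and in the 3 naive libraries. SIS1 has 8 isoforms, and one of 1214 bases led in each library with 63.4% to 100% of the counts. Leading isoforms were compared by length only. YDJ1 and FES1 have 1 listed isoform each.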
